A study of Mus musculus with 6 samples.

Results

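The 7 genes of mitochondrial calcium uptake and of the voltage-dependent anion channels (VDACs) were examined in mouse oocytes matured in vitro with or without quercetin, a plant flavonol. They were chosen by gene symbol in the deposited table, as 7 of its 53465 genes. Of these, *Mcu*, *Micu2*, *Smdt1* and *Letm1* encode proteins of the inner mitochondrial membrane, and *Vdac1*, *Vdac2* and *Vdac3* encode the channels of the outer membrane. The oocytes came from female Kunming (KM) mice aged 9 to 10 months, were taken from the ovary and were collected at the MII stage. The 3 control pools had been matured without quercetin and the 3 quercetin pools with 10 μM quercetin, and each pool held 15 oocytes from 3 mice. Quercetin had been dissolved in DMSO, and the sources used here do not say whether the control medium held DMSO. They also do not say whether pools shared mice, so the p-values measure only the spread between these pools. Total RNA was made into libraries with a Smart-seq HT kit, and each pool has one column of read counts. The question put to the data was whether the RNA levels of these genes differed between quercetin and control pools.

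The uniporter is the channel through which calcium enters the mitochondrial matrix, driven by the membrane potential. MCU forms its pore, EMRE (encoded by *Smdt1*) is needed for the pore to conduct and tethers its gate, and MICU2 is part of the gate that senses calcium in the intermembrane space. VDACs pass calcium, ATP, ADP and other metabolites across the outer membrane before the uniporter is reached. In eggs, mitochondria take up calcium released from the endoplasmic reticulum during the oscillations that follow fertilization, and matrix calcium stimulates ATP production.

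Total counts ran from 7880467 to 9938743 per pool, and 11362 to 12038 genes had at least 10 counts in a pool. The oocyte identity of the pools was checked with 10 oocyte markers, of which 9 or 10 had at least 10 counts in each pool. *Gdf9* and *Bmp15* were the highest, at means of 5760 and 2059 CPM in control and 6725 and 2344 CPM in quercetin pools. CPM are counts relative to library size after scaling by TMM (trimmed mean of M-values). Levels of some oocyte markers varied widely between pools. *Zp2*, named after its values were seen, was at 223, 1560.5 and 630 CPM in control and 131, 848 and 1325 CPM in quercetin pools. Of 9 tested oocyte markers, 1 had an unadjusted p under 0.05 by edgeR's quasi-likelihood test, against 4.03% of all tested genes. It was *Ddx4*, also named after its values were seen, at 1162 ± 133 CPM in control and 1567 ± 236 CPM in quercetin pools (SD, n = 3 each). Of 12 cumulus and granulosa cell markers, 2 to 4 reached 10 counts in a pool and their summed level ran from 62.8 to 78.1 CPM in control pools and from 79.2 to 85.2 CPM in quercetin pools. Most of it was *Cyp19a1*, the aromatase gene, at 64.3 ± 5.33 CPM in control and 74.6 ± 1.42 CPM in quercetin pools (SD, n = 3 each), followed by *Has2* at 4.20 ± 2.08 and 4.35 ± 2.36 CPM. The markers *Amh*, *Amhr2*, *Foxl2* and *Ptx3* had 0 counts in every pool. The part of these markers in the values below was not tested.

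All 7 genes had counts in every pool and passed the filter on low counts, and none passed the test of a difference between quercetin and control pools. Adjusted by Benjamini-Hochberg across the 11842 genes tested with edgeR's quasi-likelihood model, 0 of 7 had an adjusted p under 0.05 with a fold change over 2, against 0% of all tested genes. None of the 7 had an unadjusted p under 0.05, against 4.03% of all tested genes, and DESeq2 and edgeR's likelihood ratio test, which called 12 and 16 genes of the whole table, likewise called none of the 7. DESeq2 gave no adjusted p for *Smdt1* and *Letm1*, so it could call only the other 5. The quercetin and control pools overlapped for each of the 7, and the share of all tested genes without overlap was 10.6%. The log2 fold change of quercetin over control lay below 0 for 5 of them and above 0 for 2, with a median of -0.12. Of all tested genes, 53.6% lay below 0 and 46.4% above, with a median of -0.03. The median size of the log2 fold change, without its sign, was 0.17 over the 7 genes and 0.20 over all tested genes. For cell types other than the oocytes, of which each pool held 15, fewer cells and less RNA per cell cannot be told apart.

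**Figure D1:**
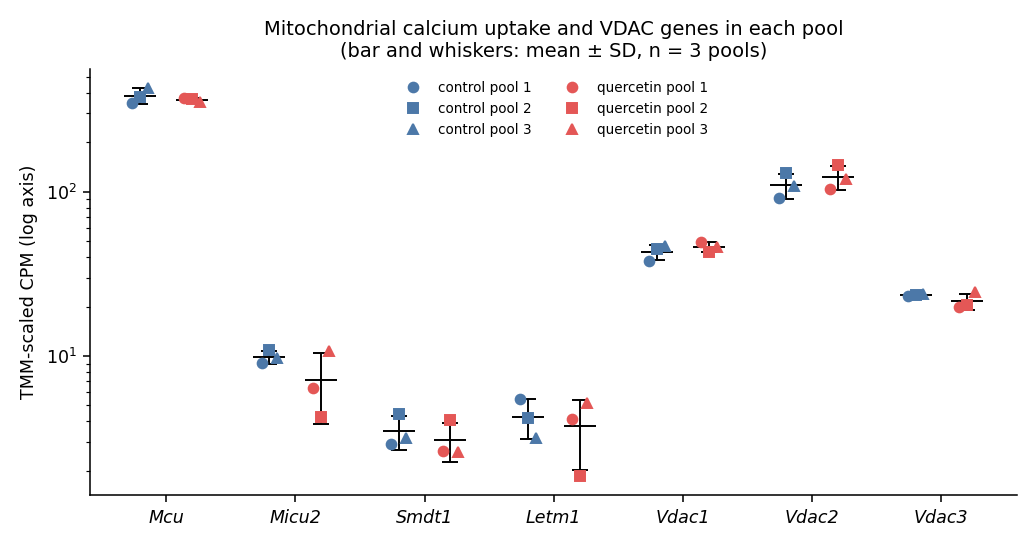
TMM-scaled CPM (log axis) of each gene in every pool, with control pools in blue and quercetin pools in red, marker shapes giving the replicate number, and a bar with whiskers for mean ± SD of 3 pools. The colours overlap for all 7 genes, and for *Micu2* quercetin pools 1 and 2 sit below the control pools while quercetin pool 3 sits among them.

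The levels of the genes spread over more than 2 orders of magnitude when divided by exon length. *Mcu* was the highest, at a mean of 53.7 CPM per kb over the 6 pools (range 49.8 to 61.6), which placed it at percentile 91.4 of the 11833 tested genes with an annotated length. *Vdac2* followed at 24.4 CPM per kb (19.1 to 30.4, percentile 84.1) and *Vdac1* at 17.0 CPM per kb (14.5 to 18.8, percentile 79.3). *Vdac3* stood near the middle of the tested genes at 4.15 CPM per kb (3.67 to 4.50, percentile 54.6). *Micu2* at 2.75 CPM per kb (1.39 to 3.51, percentile 46.0) and *Smdt1* at 2.23 CPM per kb (1.75 to 3.01, percentile 41.1) came next, and *Letm1* was the lowest at 0.415 CPM per kb (0.193 to 0.570, percentile 9.05). Only *Micu2* and *Smdt1* had ranges over the pools that overlapped, with *Micu2* the higher in 5 of 6 pools. The other 5 steps in the order held in 6 of 6 pools, the largest being 5.37-fold between *Smdt1* and *Letm1* and the smallest 1.44-fold between *Vdac2* and *Vdac1*. When the length of the longest coding transcript was used instead, *Smdt1* (4.68 CPM per kb) stood above *Micu2* (3.65 CPM per kb) and the other ranks stayed, with *Mcu* at 130 and *Vdac2* at 59.5 CPM per kb. The sizes of the steps changed with that length, from 1.44-fold to 2.70-fold for *Vdac2* over *Vdac1* and from 4.09-fold to 1.39-fold for *Vdac1* over *Vdac3*. The rank of *Vdac3* rests on its own row alone, and its level summed with the pseudogene rows described below was not ranked.

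**Figure D2:**
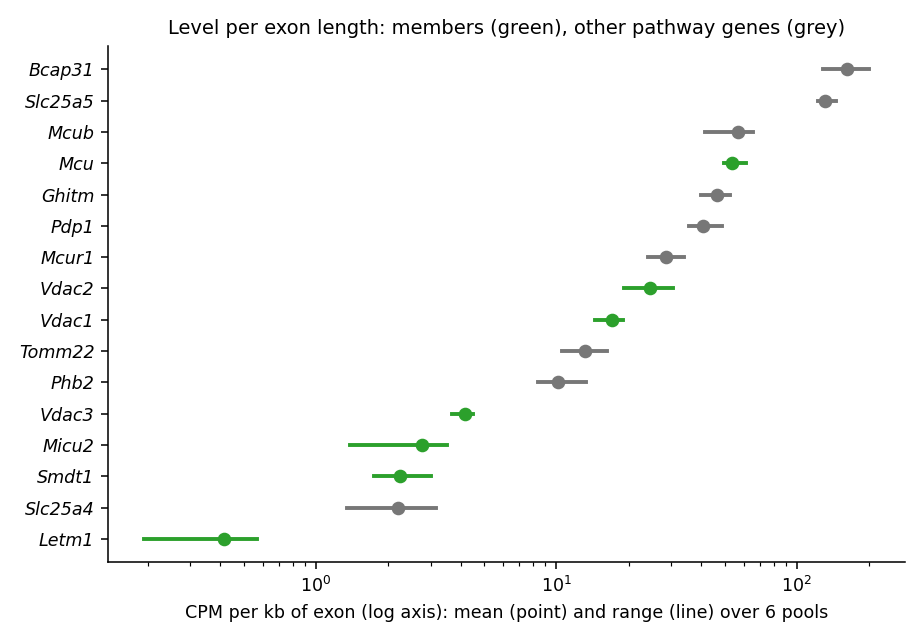
Level per exon length in CPM per kb (log axis) of the 7 genes (green) and of other genes of the pathway (grey), as the mean (point) and range (line) over the 6 pools. By this length *Mcu* lies beside *Mcub* near the top (by longest coding transcript it lies 1.95 to 3.18 times above it), *Micu2* and *Smdt1* lie next to each other with overlapping lines, and *Letm1* is lowest.

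*Mcu* (ENSMUSG00000009647, chr10:59446984-59616692 on GRCm38, minus strand) had 3078, 3136 and 3797 counts in control pools 1 to 3 and 2946, 3321 and 2983 in quercetin pools 1 to 3. After scaling, the controls were at 345, 377 and 427 CPM and the quercetin pools at 369, 364 and 351 CPM. The quercetin pools lay close together inside the range of the control pools. The means were 383 ± 41.2 CPM in control and 361 ± 9.29 CPM in quercetin pools (SD, n = 3 each). The log2 fold change was -0.08 (SE 0.13), with a 95% interval from 0.764-fold to 1.17-fold (adjusted p = 0.988 by edgeR's quasi-likelihood test; p = 0.5 by the two-sided exact permutation test). With 3 pools a side, 0.1 is the lowest p such a permutation can reach. Without control pool 3, the highest, the log2 fold change was 0.01. *Mcu* had the deepest counts and the narrowest interval of the 7.

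*Micu2* (ENSMUSG00000021973, chr14:57916261-57999262, minus strand) gave 81, 90 and 86 counts in control and 51, 39 and 91 in quercetin pools. In CPM the controls were at 9.09, 10.8 and 9.68, and the quercetin pools were at 6.39, 4.28 and 10.7. Quercetin pools 1 and 2 lay below every control pool, and quercetin pool 3 lay above 2 of the 3. The mean was 9.86 ± 0.88 CPM in control and 7.13 ± 3.28 CPM in quercetin pools (SD, n = 3 each). The coefficient of variation was 8.93% in control pools, where counting error alone gives 10.8%, and 46.0% in quercetin pools, where counting error alone gives 12.9%. The log2 fold change was -0.47 (SE 0.34), with a 95% interval from 0.426-fold to 1.23-fold (unadjusted p = 0.197 and adjusted p = 0.988 by edgeR's quasi-likelihood test; p = 0.3 by the two-sided exact permutation test). It was the lowest unadjusted p of the 7. Without quercetin pool 3 the log2 fold change was -0.89 with an unadjusted p of 0.0136 and an adjusted p of 0.290 by the same edgeR test, in a fit where 12.8% of all tested genes had an unadjusted p under 0.05. That was the lowest adjusted p of *Micu2* over 14 other settings.

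The tested genes whose pattern over the 6 pools came nearest to that of *Micu2* were *Prpf3*, *Usp3* and *Bach2*. Likeness was measured as the Euclidean distance between centred log2 CPM, among 7931 genes with a mean of at least 5 CPM. *Prpf3*, a pre-mRNA splicing factor, was at a distance of 0.153 with 151, 152 and 147 counts in control and 86, 73 and 166 in quercetin pools. *Usp3*, a deubiquitinase, was at 0.161 with 203, 228 and 209 against 140, 109 and 244 counts. *Bach2*, a transcription factor, was at 0.172 with 234, 268 and 238 against 149, 128 and 281 counts. In all of them quercetin pools 1 and 2 were the lowest of the 6 pools and quercetin pool 3 had the highest count, which follows from how they were chosen.

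*Smdt1* (ENSMUSG00000022452, chr15:82338959-82349091, plus strand) had 26, 37 and 28 counts in control and 21, 37 and 22 in quercetin pools. The replicates numbered 2 were the highest in both groups. Means were 3.51 ± 0.825 CPM in control and 3.09 ± 0.836 CPM in quercetin pools (SD, n = 3 each), and the log2 fold change was -0.17 (SE 0.34). The 95% interval ran from 0.523-fold to 1.50-fold (adjusted p = 0.990 by edgeR's quasi-likelihood test), and the value was 0.03 without control pool 2. Of its exon length, 16.6% overlaps *Pheta2* on the same strand, so reads there cannot be told apart between the genes.

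*Letm1* (ENSMUSG00000005299, chr5:33739673-33782817, minus strand) encodes a cation exchanger of the inner membrane that has been described as moving potassium or calcium against protons. It had 49, 35 and 28 counts in control and 33, 17 and 44 in quercetin pools, so that a quercetin pool was the lowest of the 6 and the other 2 lay among the control pools. Means were 4.29 ± 1.18 and 3.73 ± 1.69 CPM (SD, n = 3 each). Its log2 fold change of -0.21 (SE 0.41) had the widest error of the 7. The 95% interval from 0.456-fold to 1.65-fold held a 2-fold decrease, as did that of *Micu2*, which began at 0.426-fold. It was 0.02 without control pool 1 and 0.12 without quercetin pool 2 (adjusted p = 0.990 with all pools, by edgeR's quasi-likelihood test).

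*Vdac2* (ENSMUSG00000021771, chr14:21825238-21845879, plus strand), whose protein also binds the cell death effector BAK in the outer membrane, had 812, 1075 and 966 counts in control and 831, 1321 and 1020 in quercetin pools. The scaled levels were 91.1, 129 and 109 CPM against 104, 145 and 120 CPM, with the replicates numbered 2 highest in both groups. Means were 110 ± 19.1 and 123 ± 20.6 CPM (SD, n = 3 each). The log2 fold change of 0.17 (SE 0.19) had a 95% interval from 0.838-fold to 1.50-fold (adjusted p = 0.988 by edgeR's quasi-likelihood test; p = 0.5 by the two-sided exact permutation test).

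*Vdac1* (ENSMUSG00000020402, chr11:52360860-52389397, plus strand), whose protein is linked to the IP3 receptor of the endoplasmic reticulum through the chaperone encoded by *Hspa9*, had 338, 373 and 413 counts in control and 394, 390 and 389 in quercetin pools. That is 37.9, 44.8 and 46.5 CPM against 49.4, 42.8 and 45.8 CPM. The lowest pool was a control and the highest a quercetin pool, with the other 4 between them. Means were 43.1 ± 4.53 and 46.0 ± 3.29 CPM (SD, n = 3 each), and the log2 fold change was 0.09 (SE 0.17). Its 95% interval from 0.815-fold to 1.40-fold stayed inside 2-fold in either direction (adjusted p = 0.990 by edgeR's quasi-likelihood test).

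*Vdac3* (ENSMUSG00000008892, chr8:22577075-22593813, minus strand) had 206, 195 and 211 counts in control and 159, 186 and 207 in quercetin pools. The control pools were within 23.1 to 23.7 CPM, with a mean of 23.4 ± 0.311 CPM, and the quercetin pools were at 19.9, 20.4 and 24.4 CPM, with a mean of 21.6 ± 2.44 CPM (SD, n = 3 each). The quercetin pools thus lay on both sides of the control pools. For *Vdac3* the log2 fold change was -0.12 (SE 0.19) with a 95% interval from 0.686-fold to 1.23-fold (adjusted p = 0.988 by edgeR's quasi-likelihood test; p = 0.4 by the two-sided exact permutation test).

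The count of *Vdac3* has to be read beside that of *Vdac3-ps1* (ENSMUSG00000075053), an annotated unprocessed pseudogene with 1 exon of 853 bases at chr13:18030741-18031593, minus strand. It covers all 849 coding bases of *Vdac3* with 4 mismatches and no gaps (99.5% identity). Counted from the first base of the *Vdac3* start codon, with the *Vdac3* base first, the differences are T21C, T237C, G404A and T445G. The stretch from coding position 324 to 551 is shown because it holds 2 of them, and the same stretch of *Vdac1* and *Vdac2* shows how much further apart the 3 channel genes are. Sequences are from the GRCm38 genome, each 228 bases, 5′ to 3′ on the coding strand. Capitals in *Vdac3* and *Vdac3-ps1* mark the bases that differ between them, and capitals in *Vdac1* (82) and *Vdac2* (67) mark the bases that differ from *Vdac3*.
Vdac3 (chr8:22580340-22580567, minus strand): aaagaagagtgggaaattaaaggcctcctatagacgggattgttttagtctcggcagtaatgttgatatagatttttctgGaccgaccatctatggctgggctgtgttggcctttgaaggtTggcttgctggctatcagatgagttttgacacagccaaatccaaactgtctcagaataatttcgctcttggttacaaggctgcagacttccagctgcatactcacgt
Vdac3-ps1 (chr13:18031043-18031270, minus strand): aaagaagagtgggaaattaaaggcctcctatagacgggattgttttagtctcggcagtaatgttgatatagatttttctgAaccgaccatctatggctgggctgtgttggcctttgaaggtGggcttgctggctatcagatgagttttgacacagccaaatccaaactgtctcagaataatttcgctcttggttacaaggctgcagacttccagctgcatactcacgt
Vdac1 (chr11:52383850-52384077, plus strand): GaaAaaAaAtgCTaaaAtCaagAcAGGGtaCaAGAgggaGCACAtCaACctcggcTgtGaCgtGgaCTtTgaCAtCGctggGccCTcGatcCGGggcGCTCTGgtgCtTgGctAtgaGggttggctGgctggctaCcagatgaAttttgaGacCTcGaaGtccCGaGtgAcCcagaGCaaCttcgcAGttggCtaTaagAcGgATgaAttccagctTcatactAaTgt
Vdac2 (chr14:21838391-21838618, plus strand): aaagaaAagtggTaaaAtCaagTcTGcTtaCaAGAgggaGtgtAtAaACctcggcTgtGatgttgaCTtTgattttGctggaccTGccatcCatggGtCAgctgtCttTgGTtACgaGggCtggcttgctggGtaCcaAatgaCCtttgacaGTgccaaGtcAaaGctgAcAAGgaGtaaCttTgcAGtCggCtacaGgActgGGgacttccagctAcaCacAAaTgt

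Over the whole coding sequence, *Vdac1* was 66.7% and *Vdac2* 72.7% identical to *Vdac3*, and *Vdac1* and *Vdac2* were 70.3% identical to each other. The longest identical run between any pair of them was 17 bases. Between *Vdac3* and *Vdac3-ps1* a read inside the coding sequence could differ at most at the 4 positions given. Of the 31-base words in the *Vdac3-ps1* transcript, 86.1% also occurred in transcripts of *Vdac3*. Of the words of *Vdac3*, 14.3% occurred in transcripts of any other gene.

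*Vdac3-ps1* had 191, 183 and 195 counts in control and 142, 177 and 193 in quercetin pools. These were 89.3% to 95.2% of the *Vdac3* counts, and the difference between the rows was only 9 to 17 reads in every pool. *Vdac3-ps1* had a log2 fold change of -0.13 (SE 0.19), beside -0.12 for *Vdac3*. A further pseudogene, *Gm7591* (chr14:27210397-27211249, plus strand, 50.8% of words shared), had 58, 55 and 53 counts in control and 28, 45 and 49 in quercetin pools, or 17.6% to 28.2% of *Vdac3*. Whether the same reads were counted in more than one of these rows was not tested. A read of the coding sequence that covers none of the 4 differing positions matches *Vdac3* and *Vdac3-ps1* equally. For *Vdac2*, its pseudogene *Gm7832* reached 30 to 50 counts, or 3.07% to 4.56% of *Vdac2*, and for *Vdac1* the pseudogene *Gm15502* had 1 count in all 6 pools together.

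**Figure D3:**
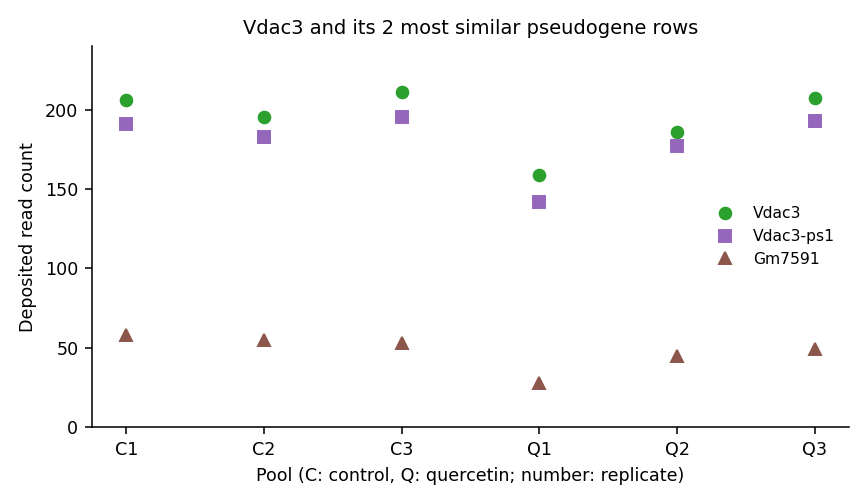
Deposited read counts of *Vdac3* (green), *Vdac3-ps1* (purple) and *Gm7591* (brown) in each control (C) and quercetin (Q) pool. The *Vdac3-ps1* points follow those of *Vdac3* at 9 to 17 reads below in every pool, and *Gm7591* stays between 28 and 58 reads.

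The makeup of the VDAC transcripts was computed as each gene's share of their summed level per exon length. *Vdac2* made up 50.5%, 55.8% and 50.8% in control and 49.2%, 60.2% and 53.4% in quercetin pools. *Vdac1* made up 38.2%, 35.3% and 39.5% in control and 42.5%, 32.3% and 37.1% in quercetin pools. *Vdac3* made up 11.3%, 8.91% and 9.75% against 8.29%, 7.46% and 9.53%. The order *Vdac2*, *Vdac1*, *Vdac3* held in each of the 6 pools, and the groups overlapped for every share. By longest coding transcript *Vdac3* had a larger share, from 13.1% to 19.9%, and *Vdac2* from 57.1% to 67.6%, in the same order. These shares and their order rest on the *Vdac3* row alone. *Vdac3-ps1* reached 89.3% to 95.2% and *Gm7591* 17.6% to 28.2% of its count, and shares with these rows added were not computed.

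**Figure D4:**
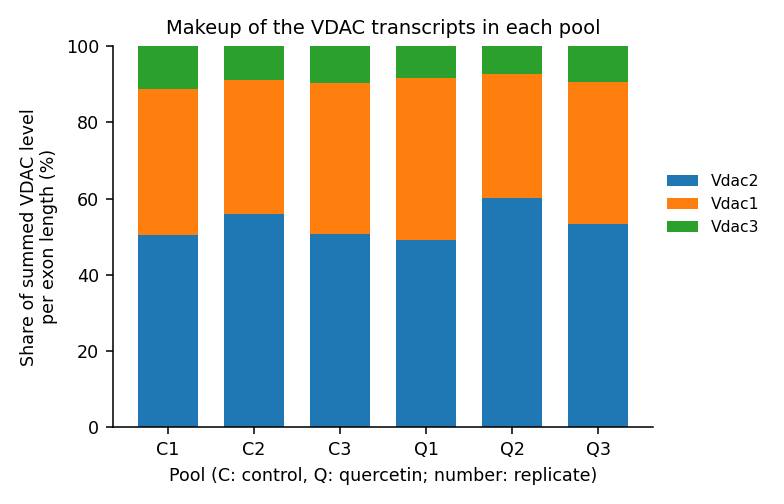
Share (%) of the summed VDAC level per exon length held by *Vdac2* (blue), *Vdac1* (orange) and *Vdac3* (green) in each control (C) and quercetin (Q) pool. *Vdac2* holds 49.2% to 60.2% and *Vdac3* 7.46% to 11.3% of the level in every pool.

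The 7 genes were then set beside 51 other genes of the same pathway in 7 lists, of which 37 were tested. None of the 37 was called, 0 were higher at an unadjusted p under 0.05 (2.14% of all tested genes) and 1 was lower (1.89% of all tested genes) by edgeR's quasi-likelihood test. Their log2 fold changes lay above 0 for 17 and below 0 for 20, with a median of -0.01. Of the 37, quercetin and control pools did not overlap for *Ghitm* and *Idh3a* (higher) and for *Slc25a4*, *Mtx1* and *Slc25a12* (lower). The share of all tested genes without overlap, in either direction, was 10.6%. *Idh3a*, *Mtx1* and *Slc25a12* were named after their values were seen.

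Among 6 uniporter partners, 5 of which were tested, none had an unadjusted p under 0.05. *Mcub*, the paralog that lowers the conductance of the channel, had the highest level per exon length of them, at 56.6 CPM per kb. It had 688, 453 and 678 counts in control and 688, 782 and 577 in quercetin pools (69.3 ± 12.9 and 80.0 ± 10.4 CPM, SD, n = 3 each), with a log2 fold change of 0.21 (SE 0.19). The level of *Mcu* per exon length was 0.850, 1.32 and 1.06 times that of *Mcub* in control pools and 0.814, 0.807 and 0.982 times in quercetin pools, with overlap between the groups. By longest coding transcript, which is much shorter than all exons for *Mcu* and of the same length for *Mcub*, it was 1.95 to 3.18 times that of *Mcub* in every pool. *Mcu* exceeded *Smdt1* by 18.1 to 29.9 times per exon length, also with overlap.

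*Micu3*, a relative of *Micu2* known mainly from nervous tissue and named after its values were seen, had 15, 8 and 14 against 4, 7 and 4 counts and did not pass the filter on low counts. Its groups did not overlap. When every gene with at least 1 count in total was tested instead, its log2 fold change was -1.25 (SE 0.53; unadjusted p = 0.0348, adjusted p = 0.834 by edgeR's quasi-likelihood test).

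Calcium leaves the matrix mainly by a sodium/calcium exchanger encoded by *Slc8b1*. That gene, also named after its values were seen, had 0 counts in every pool, where 3 counts would be 0.302 to 0.381 CPM. Of the 5 genes of calcium efflux and related exchangers, 2 were tested and none had an unadjusted p under 0.05. *Ghitm*, an inner membrane protein described as a calcium/proton exchanger and the highest of the list at 46.5 CPM per kb, had 164 ± 12.0 CPM in control and 185 ± 12.4 CPM in quercetin pools (SD, n = 3 each). Its 3 quercetin pools lay above its 3 control pools, but the log2 fold change of 0.18 (SE 0.14) did not pass the test (unadjusted p = 0.229 by edgeR's quasi-likelihood test). Among 5 proteases and prohibitins acting on the uniporter, all tested, none had an unadjusted p under 0.05, and the highest per exon length, the prohibitin gene *Phb2*, had a log2 fold change of 0.03 (SE 0.22).

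Of 13 genes of calcium release from the endoplasmic reticulum and of its contacts with mitochondria, 10 were tested and none had an unadjusted p under 0.05. *Bcap31*, an endoplasmic reticulum protein, was the highest at 162 CPM per kb, with 182 ± 18.7 CPM in control and 213 ± 49.2 CPM in quercetin pools (SD, n = 3 each) and a log2 fold change of 0.22 (SE 0.19). None of the 6 genes of calcium-responsive matrix supply had an unadjusted p under 0.05 either. The highest of them, *Pdp1*, a calcium-stimulated phosphatase that activates pyruvate dehydrogenase, had 170 ± 13.0 and 196 ± 31.5 CPM (SD, n = 3 each) and a log2 fold change of 0.20 (SE 0.16). Of 7 genes of other outer membrane channels and protein import, 5 were tested with none at an unadjusted p under 0.05, and the import receptor gene *Tomm22* had a log2 fold change of 0.07 (SE 0.22).

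The 1 gene with an unadjusted p under 0.05 was *Slc25a4*, among 9 partners of VDAC of which 4 were tested. It encodes an ADP/ATP carrier of the inner membrane, which exchanges the nucleotides that VDACs pass across the outer membrane. *Slc25a4* had 52, 62 and 61 counts in control and 26, 29 and 36 in quercetin pools, so that all quercetin pools lay below all control pools. The means were 6.72 ± 0.819 and 3.56 ± 0.589 CPM (SD, n = 3 each). Its log2 fold change was -0.91 (SE 0.27, 95% interval -1.53 to -0.30), which did not pass adjustment over all tested genes (unadjusted p = 0.00828, adjusted p = 0.988 by edgeR's quasi-likelihood test). The other carrier gene, *Slc25a5*, was far higher, at 131 CPM per kb against 2.18 CPM per kb for *Slc25a4*, and had 212 ± 8.84 and 219 ± 17.4 CPM with a log2 fold change of 0.05 (SE 0.13). Of the 31-base words of *Slc25a5*, 49.4% occur in transcripts of other genes, which makes its count uncertain, whereas *Slc25a4* shares none. Named after their values were seen, the hexokinase gene *Hk1* had 1 count in all pools together, and *Bak1* and *Ckmt1* had 0 in every pool.

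**Figure D5:**
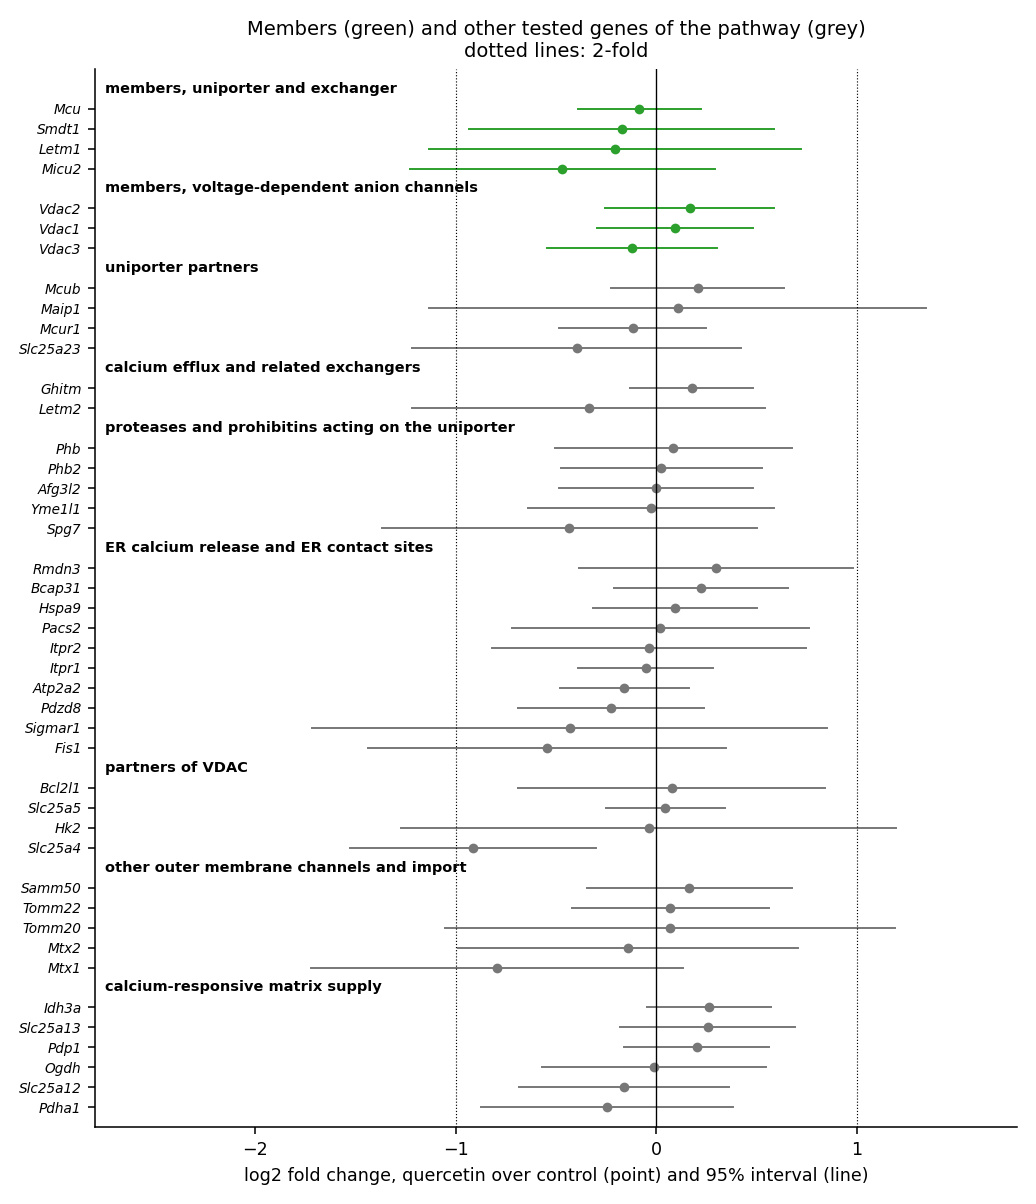
Log2 fold change of quercetin over control (point) with its 95% interval (line) for the 7 genes (green) and tested genes of the pathway lists (grey), with dotted lines at 2-fold. All lines shown cross 0 except that of *Slc25a4*, whose interval runs from -1.53 to -0.30.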

How the data were processed

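RNA was measured in 6 pools of MII oocytes, 3 control and 3 quercetin. Per the labels the libraries followed the Smart-seq HT kit. The authors deposited raw read counts per Ensembl gene and pool, without normalization. The paper names Hisat2 and GRCm38.91, the submitters' processing notes list CASAVA 1.8 and TopHat2 2.0.6 with mm10 and GRCm38, and the counting program and its handling of strand and of multi-mapping reads are not given in the sources used here. Overlapping and near-identical genes are therefore given with the share concerned, measured as exon overlap or shared 31-base words in GENCODE M21 (GRCm38). Symbols matched 53360 of 53465 identifiers.

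Of 24476 genes with counts, 11842 passed filterByExpr (minimum count 10) of edgeR 4.0.16. Quercetin was compared with control by TMM scaling and edgeR's quasi-likelihood test (R 4.3.3, no covariate), and p-values were adjusted by Benjamini-Hochberg across the tested genes. The study's criteria, adjusted p under 0.05 with fold change above 2, defined a called gene. The paper reported up- and down-regulated genes at these criteria but did not name its RNA-seq test, so its calls and those here may come from different tests. The biological coefficient of variation was 0.2692. Permutation tests were two-sided and exact, on log2 CPM. Total counts were 7880467 to 9938743, so 3 counts correspond to 0.302 to 0.381 CPM, a floor for counting error only.

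The members and lists were chosen with earlier results of these data known. Besides the members, the text names, of each pathway list, the gene highest per exon length and each gene with an unadjusted p under 0.05, of each marker list the highest 2, and the 3 genes nearest to the member with the lowest unadjusted p. Others are named as chosen after their values were seen, and 1 gene of the pathway lists is not reported here. Other settings tried were edgeR's likelihood ratio test, DESeq2 1.42.0, limma-voom (limma 3.58.1), other scalings and filters, summing rows of near-identical genes, the replicate number as a block, and leaving out each pool. Plots used matplotlib 3.10.9 in Python 3.11.15.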

Additional observations from a re-analysis of the deposited data

How the results depend on the processing

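No member with an adjusted p was called under any alternative, the exceptions without one being *Smdt1* and *Letm1* by DESeq2. Of 99 member-by-setting fits 95 kept their direction, and the lowest adjusted p was 0.290. The 4 that turned were *Mcu* without control replicate 3 (0.00904; range when leaving out 1 pool -0.15 to 0.00904), *Smdt1* without control replicate 2 (0.0330; range -0.42 to 0.0330), and *Letm1* without control replicate 1 (0.0173) or quercetin replicate 2 (0.122; range -0.52 to 0.122). Leaving out 1 pool gave -0.89 to -0.20 for *Micu2*, 0.01 to 0.16 for *Vdac1*, 0.03 to 0.30 for *Vdac2* and -0.21 to -0.07 for *Vdac3*. Members with an unadjusted p under 0.05 then numbered 0 to 1, the 1 being *Micu2* without quercetin replicate 3. In that fit 12.8% of all tested genes had an unadjusted p under 0.05. Pathway genes with an unadjusted p under 0.05 numbered 1 to 3 when leaving out 1 pool, the 3 also being without quercetin replicate 3. They numbered 2 with a filter of at least 1 count in total (*Slc25a4* and *Micu3*), where 780 of 24476 tested genes had such a p. Genes called among all tested were 0 in the fit reported, 3 with that filter, 12 by DESeq2, 16 by edgeR's likelihood ratio test and 0 to 7 when leaving out 1 pool, and the cause was not tested. Scaling by library size only moved the median log2 fold change of all genes from -0.03 to -0.11. Replicate numbers matched the pools only in part. Deviations of same-numbered pools correlated at 0.296, 0.101 and -0.0303, the first being the highest of all pairs of a control and a quercetin pool. Control pool 2 correlated better with quercetin pool 3 (0.176) than with its own number. With the replicate block 0 genes were called, 492 instead of 477 had an unadjusted p under 0.05, and *Micu2* was at -0.55, with no call changed. Counts were lowest for *Smdt1* and *Letm1*, at 17 to 49 per pool, and the SE of the log2 fold change was 0.34 to 0.41 for *Micu2*, *Smdt1* and *Letm1* against 0.13 to 0.19 for the other members.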
